A study of Mus musculus with 30 samples.

Results

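Transcript levels of the mouse Fc gamma receptors and their partners were read in 8 populations of monocytes and macrophages sorted from mice with a glioma. The set holds 6 genes that were listed by name: Fcgr1, Fcgr3 and Fcgr4, which encode the ligand-binding chains of activating receptors, Fcgr2b, which encodes the inhibitory receptor, Fcer1g, which encodes the signaling chain shared by the activating receptors, and Fcgrt, which encodes the heavy chain of the neonatal Fc receptor. They are 6 of the 45317 genes in the count table, and all 6 were among the 11566 genes with enough counts to be tested. The glioma was made with GL261 cells, a mouse glioma line, which carried a palmitoylated GFP that anchors in membranes, so that a GFPpos cell had taken up tumor-derived membrane and a GFPneg cell had no such signal. The hosts of every group were C57BL6.CCR2RFP/WT mice of 12 to 18 weeks, in which 1 copy of Ccr2 carries a red fluorescent protein, and every population, blood included, came from tumor-bearing animals. From blood, CD45+ CD115+ CD11clow cells were sorted as Ly6Chigh and Ly6Clow monocytes (3 mice each, numbers 22, 23 and 24). From the brain, CD11bhigh CD45high cells were sorted as GFPneg and GFPpos glioma monocytes (3 mice each, numbers 22, 24 and 26) and as CCR2high and CCR2low macrophages, each GFPneg or GFPpos (4 mice each, numbers 22, 23, 24 and 26).

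Several features of the design bear on every value. Brain cells were released with enzymes and blood cells were not, so tissue and cell handling cannot be told apart between blood and brain. Before staining, the cells were blocked with an antibody against CD16 and CD32, the proteins of Fcgr3 and Fcgr2b, and the values here are of mRNA and not of those proteins. In bulk samples of sorted cells, fewer cells that make a transcript and less of it per cell cannot be told apart.

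Fc gamma receptors bind the constant part of IgG and tell a phagocyte that an antibody has marked a target. The high-affinity receptor Fc gamma RI (Fcgr1, CD64), the low-affinity receptor Fc gamma RIII (Fcgr3, CD16) and Fc gamma RIV (Fcgr4) sit with the gamma chain Fcer1g, whose ITAM (a tyrosine motif) recruits the kinase Syk once Src-family kinases such as Lyn and Fgr have phosphorylated it. Fc gamma RIIB (Fcgr2b, CD32) carries an inhibitory motif in its own tail and recruits the phosphatase SHIP1 against that signal, so the relation of activating chains to Fcgr2b sets how a cell answers an immune complex. Fcgrt stands apart: with beta-2 microglobulin (B2m) it salvages IgG and albumin from endosomes. In tumors, macrophages use these receptors to take up antibody-coated tumor cells.

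The 6 genes lie at 3 places in the genome (GRCm38). Fcgr2b (chr1:170958617-170976547, minus strand), Fcgr4 (chr1:171018920-171029761, plus strand), Fcgr3 (chr1:171051174-171064935, minus strand) and Fcer1g (chr1:171229572-171234365, minus strand) are neighbours on chromosome 1. Fcgr1 lies at chr3:96282909-96293969 and Fcgrt at chr7:45092990-45103851, both on the minus strand. Fcgr2b and Fcgr3 share sequence: 94 of the 1733 distinct 75-base windows of Fcgr3 transcripts (5.42%) also occur in Fcgr2b transcripts, so a read within one of them cannot be assigned to 1 of the 2 genes. Of the 5768 windows of Fcgr2b, 5.43% occur in transcripts of other genes. No 75-base window of Fcgr1, Fcgr4, Fcer1g or Fcgrt occurs in transcripts of another gene. Antisense genes overlap exon bases of Fcgr2b (493 bases) and Fcgrt (905 bases), and the strand setting of the counting is not given in the sources used here.

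The proximal promoters of Fcgr1 and Fcgr4 are shown because these genes had the largest differences between populations and are on different chromosomes. Each window holds the 250 bases before the RefSeq start (GRCm38.p6), which for Fcgr1 is chr3:96293970-96294219 (minus strand) and for Fcgr4 is chr1:171018676-171018925 (plus strand), whose last 6 bases lie within the gene as GENCODE places it. Capitals mark matches, on either strand, to the GAS core TTCNNNGAA, an element of the response to interferon gamma, to the ISRE core (GAAA, any 2 bases, GAAA), an element of the response to type I interferons, and to GAGGAA, a core of the myeloid factor PU.1.
Fcgr1: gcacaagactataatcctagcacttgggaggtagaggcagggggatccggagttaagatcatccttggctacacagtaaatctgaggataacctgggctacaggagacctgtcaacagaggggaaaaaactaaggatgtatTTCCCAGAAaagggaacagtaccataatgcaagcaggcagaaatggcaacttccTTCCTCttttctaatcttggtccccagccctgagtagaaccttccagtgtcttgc
Fcgr4: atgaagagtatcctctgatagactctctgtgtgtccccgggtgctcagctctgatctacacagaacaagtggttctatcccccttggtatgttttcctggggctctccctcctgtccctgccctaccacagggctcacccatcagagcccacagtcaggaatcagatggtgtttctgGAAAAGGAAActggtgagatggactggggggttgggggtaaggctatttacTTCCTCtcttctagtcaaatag

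In the Fcgr1 window the GAS match TTCCCAGAA starts 109 bases before the start, and a PU.1 core lies at 55 bases. The Fcgr4 window holds an ISRE match, GAAAAGGAAA, at 73 bases and a PU.1 core at 22 bases. None of these matches overlap. Among 32851 promoter windows of this length, 7.02% hold the GAS core, 2.98% the ISRE core and 23.3% the PU.1 core. The windows of Fcgr2b, Fcer1g and Fcgrt hold none of the 3, and those of Fcgr3 hold the PU.1 core alone, which says only that the letters are not in these windows. The windows of Fcgr2b (chr1:170976072-170976321) and Fcgr3 (chr1:171059395-171059644 and chr1:171059404-171059653) lie wholly inside their genes as GENCODE places them. Those of Fcer1g and Fcgrt overlap their genes in part.

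Each replicate had between 1553616 and 5689644 deposited counts on genes, and no member had fewer than 65 counts in a replicate. Levels are given as CPM, a gene's counts per 1000000 counts on genes after TMM scaling of the libraries. A Ly6Clow library of mouse 23 failed the authors' rule on the number of genes seen and was left out in favour of another library of the same sample, and GFPpos glioma monocytes of mouse 22 are the sum of 2 libraries. The pairs disagree in Fc receptor genes. The Ly6Clow library that failed held 389 CPM of Fcgr1 and 45.8 CPM of Fcgr4 before TMM scaling, and the one used held 47.2 and 657. The one used also stands apart, with 6475 genes at 5 or more reads where the rule asks for 6000, and with 13.3% spike-in reads where the other replicates had 0.284 to 5.16%. It gave the highest CPM of all 6 members among the Ly6Clow replicates, by little for Fcgr1 (48.97, next 48.83) and Fcgrt (359.7, next 358.5). Without it the log2 fold change of Ly6Clow against Ly6Chigh monocytes was 2.87 for Fcgr4, 1.08 for Fcgrt and -1.92 for Fcgr1 (edgeR adjusted p = 3.15e-05, 0.0304 and 0.00014). The libraries summed for GFPpos glioma monocytes held 446 and 735 CPM of Fcgr1, 616 and 1626 CPM of Fcgr3 and 47.6 and 210 CPM of Fcgrt before TMM scaling. All 10 marker genes of the labelled cells had at least 1 count in some replicate of each of the 8 populations. Among them Mertk was near 0 in blood, with means of 0.766 CPM in Ly6Chigh and 0.0987 CPM in Ly6Clow monocytes. Among markers of other cells, whose part in the results was not tested, the summed CPM of 8 microglial genes was 145 to 285 over the blood replicates and 1769 to 9482 over the brain replicates, with Sall1 and Siglech at 0 in both blood populations. Neutrophil markers (8 genes) summed to between 6.81 and 2369 CPM over all replicates, B-cell markers (8 genes) to between 169 and 2048, NK-cell markers (7 genes) to between 1.76 and 917, dendritic-cell markers (6 genes) to between 100 and 1895, endothelial markers (6 genes) to between 15.2 and 189 and mast-cell and basophil markers (6 genes) to between 0 and 272.

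**Figure D1:**
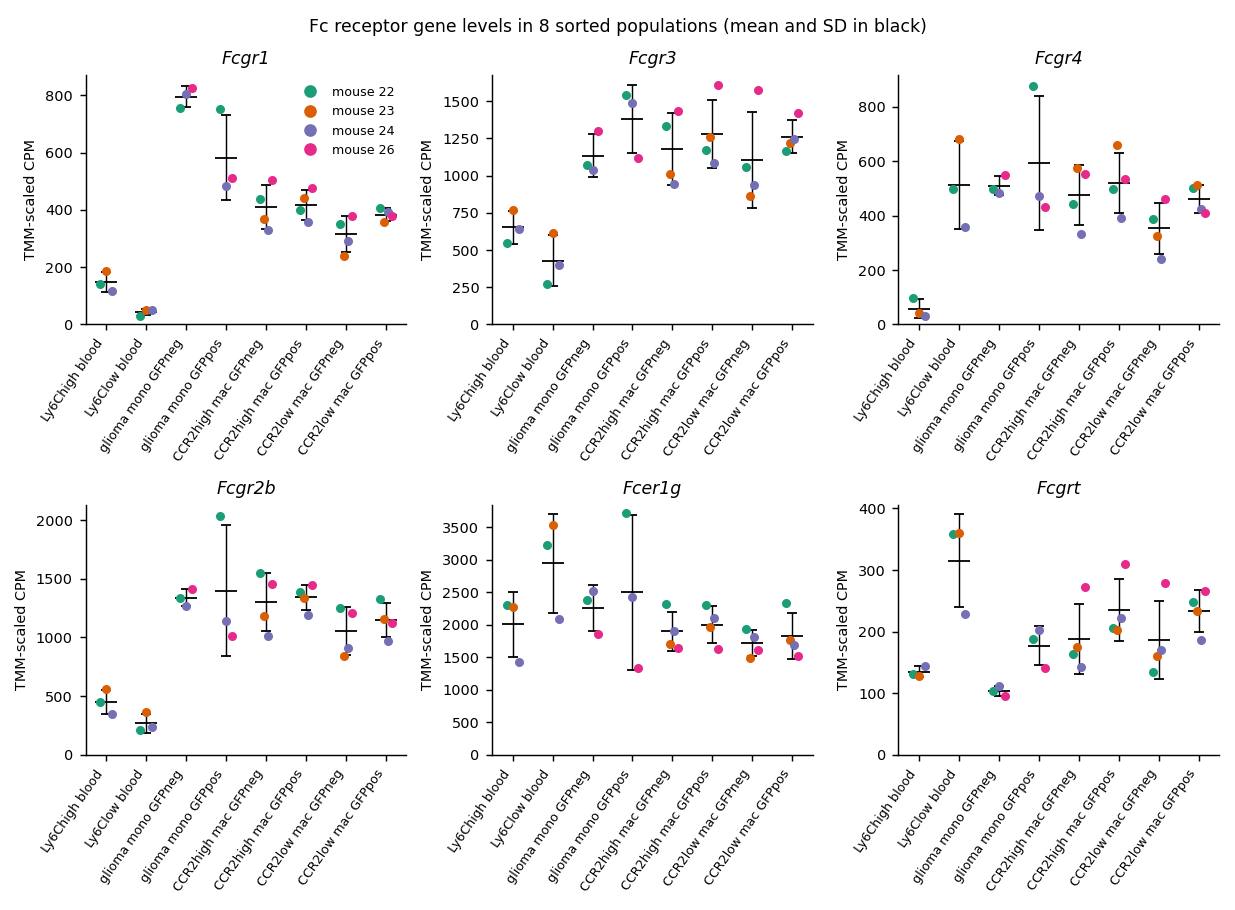
TMM-scaled CPM (linear axis from 0) of the 6 Fc receptor genes in each replicate, coloured by mouse, with the mean and SD of each population in black. Fcgr4 is lowest in Ly6Chigh blood monocytes (32.2 to 97.2 CPM) and Fcgr1 highest in GFPneg glioma monocytes (755 to 827 CPM).

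Fcgr1, the high-affinity IgG receptor and a macrophage marker, was lowest in blood and highest in glioma monocytes. In Ly6Chigh blood monocytes it had 141, 188 and 118 CPM in mice 22, 23 and 24, and in Ly6Clow monocytes 30.7, 49.0 and 48.8 CPM. In glioma monocytes it had 755, 806 and 827 CPM in the GFPneg cells of mice 22, 24 and 26, and 753, 484 and 512 CPM in their GFPpos cells. The blood populations overlap neither each other nor any brain population, and every GFPneg glioma monocyte replicate lies above every other replicate. GFPneg CCR2high macrophages had 440, 369, 329 and 505 CPM in mice 22, 23, 24 and 26, and their GFPpos counterparts 399, 442, 357 and 478 CPM. CCR2low macrophages had 351, 241, 293 and 378 CPM without GFP and 408, 357, 394 and 378 CPM with it. The 4 macrophage populations overlap one another.

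Against Ly6Chigh blood monocytes, Fcgr1 was 5.35-fold higher in GFPneg glioma monocytes (log2 fold change 2.42, SE 0.24, edgeR quasi-likelihood test, adjusted p = 8.16e-08). It was also higher in GFPneg CCR2high macrophages (1.46, SE 0.23, adjusted p = 3.52e-05) and CCR2low macrophages (1.09, SE 0.22, adjusted p = 0.000842). In Ly6Clow blood monocytes it was lower than in Ly6Chigh ones (-1.79, SE 0.24, adjusted p = 6.28e-05). Within the brain, Fcgr1 fell by 1.33 on the log2 scale from GFPneg glioma monocytes to CCR2low macrophages (SE 0.22, edgeR adjusted p = 0.00088). The 8 microglial markers summed to 1769 to 3066 CPM in GFPneg glioma monocytes and 4001 to 9482 CPM in GFPneg CCR2low macrophages. The part of microglial RNA in the Fcgr1 difference was not tested. Between CCR2high macrophages and glioma monocytes the difference was -0.96 (SE 0.22), and its adjusted p of 0.0675 missed the threshold of 0.05. With mouse number as a replicate block that adjusted p was 0.0205, and 5 of the 16 alternatives run, this one included, gave a call. The study's own DESeq2 analysis, at the same threshold, lists Fcgr1 as higher in glioma monocytes than in CCR2high and in CCR2low macrophages. That analysis states fewer mice per macrophage type than are used here. Between the GFPpos populations the CCR2low difference was -0.60 (SE 0.22, adjusted p = 0.49), so the GFPneg cells gave a call and the GFPpos cells did not. The GFP effect in CCR2low macrophages minus that in glioma monocytes, which is the difference between these 2 values, was 0.73 (SE 0.31, adjusted p = 1). The call between the blood populations was lost with the Ly6Clow library that failed the quality rule in place of the one used (-0.29, adjusted p = 0.789), with spike-in scaling (-3.36, adjusted p = 0.112) and with only the blood populations in the fit (-1.79, adjusted p = 0.355). With spike-in scaling the 4 other calls of Fcgr1 were lost too, with the same signs (1.16 to 2.44 against Ly6Chigh monocytes, adjusted p from 0.165 to 0.669, and -1.28 within the brain).

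Fcgr4, a receptor of mice for IgG2a and IgG2b, separated Ly6Chigh monocytes from the other 7 populations. They had 97.2, 43.9 and 32.2 CPM in mice 22, 23 and 24. Ly6Clow monocytes of the same mice had 498, 682 and 358 CPM, and GFPneg glioma monocytes had 499, 482 and 550 CPM in mice 22, 24 and 26. Macrophages of mice 22, 23, 24 and 26 had 444, 573, 332 and 554 CPM in GFPneg CCR2high cells and 388, 325, 241 and 462 CPM in GFPneg CCR2low cells, the latter all below GFPneg glioma monocytes. GFPpos populations had between 390 and 876 CPM. Every replicate outside the Ly6Chigh population lies above all 3 Ly6Chigh replicates, and the other 7 populations overlap their neighbours in the order of means.

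Compared with Ly6Chigh monocytes, Fcgr4 was 8.93-fold higher in Ly6Clow monocytes (log2 fold change 3.16, SE 0.37, edgeR adjusted p = 1.21e-05) and 8.89-fold higher in GFPneg glioma monocytes (3.15, SE 0.37, adjusted p = 8.18e-07). The differences of GFPneg CCR2high and CCR2low macrophages were 3.05 (SE 0.36, adjusted p = 6.89e-07) and 2.62 (SE 0.35, adjusted p = 4.04e-06). These comparisons share the Ly6Chigh replicates, and mouse 22 is the highest of them. Neutrophils also carry this receptor, and the 8 neutrophil markers summed to 168 to 634 CPM in Ly6Chigh monocytes, 687 to 1156 CPM in Ly6Clow monocytes and 39.1 to 1622 CPM in GFPneg glioma monocytes, with Ngp and Camp at 0 in Ly6Clow monocytes. The part of neutrophil RNA in the Fcgr4 difference was not tested. The blood difference was 2.37 (SE 0.54, adjusted p = 0.0138) with the failed Ly6Clow library in place of the one used, and its call was lost with spike-in scaling (1.20, adjusted p = 0.301) and with only the blood populations in the fit (3.17, adjusted p = 0.161). The CCR2low call was lost with spike-in scaling (2.75, adjusted p = 0.0606), and the other 2 brain calls were kept (3.19 each, adjusted p = 0.0426 and 0.0295).

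Fcgr3, the low-affinity activating receptor, had the smallest fold changes of the activating chains against Ly6Chigh monocytes. It had 545, 771 and 641 CPM in Ly6Chigh and 271, 612 and 402 CPM in Ly6Clow monocytes of mice 22, 23 and 24. It had 1069, 1039 and 1299 CPM in GFPneg glioma monocytes of mice 22, 24 and 26, and 865 to 1607 CPM over all 4 macrophage populations. The brain populations lie above both blood populations and overlap one another, and the blood populations overlap. Against Ly6Chigh monocytes the log2 fold change was 0.80 in GFPneg glioma monocytes (SE 0.26, edgeR adjusted p = 0.0404), 0.86 in CCR2high macrophages (SE 0.25, adjusted p = 0.0155) and 0.76 in CCR2low macrophages (SE 0.25, adjusted p = 0.0284). The first of these calls was lost when any 1 of the 6 compared replicates was left out (adjusted p from 0.0636 to 0.188), with a filter of 1 count (0.0679) and with the first library of the summed sample (0.0917). The other 2 were lost without Ly6Chigh mouse 22 or 24 or without macrophages of mouse 26, and that in CCR2low macrophages also with the first library of the summed sample (0.0688). All 3 were lost with spike-in scaling (0.75 to 0.91, adjusted p from 0.842 to 1). NK cells also make Fcgr3, and the 7 NK-cell markers summed to 1.76 to 21.9 CPM in Ly6Chigh monocytes (Ncr1 and Eomes at 0) and to 142 to 917 CPM in Ly6Clow monocytes and GFPneg brain populations. The 8 microglial markers summed to 185 to 285 CPM in Ly6Chigh monocytes and to 1769 to 9482 CPM in the GFPneg brain populations. The part of NK-cell or microglial RNA in the Fcgr3 differences was not tested. In Ly6Clow against Ly6Chigh monocytes Fcgr3 differed by -0.61 (SE 0.26, edgeR adjusted p = 0.168), and by -0.98 without Ly6Clow mouse 23 (adjusted p = 0.0314).

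Fcgr2b, the inhibitory receptor, was higher in all brain populations than in blood. Ly6Chigh monocytes had 445, 557 and 351 CPM and Ly6Clow monocytes 211, 362 and 233 CPM in mice 22, 23 and 24. GFPneg glioma monocytes had 1339, 1265 and 1410 CPM in mice 22, 24 and 26, and their GFPpos counterparts 2037, 1141 and 1013 CPM. Over the 4 macrophage populations the range was 843 to 1552 CPM. No brain replicate overlaps the blood range, the brain populations overlap one another, and the blood populations overlap.

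Relative to Ly6Chigh monocytes, Fcgr2b was 2.97-fold higher in GFPneg glioma monocytes (log2 fold change 1.57, SE 0.26, edgeR adjusted p = 9.53e-05), and the differences were 1.53 in CCR2high macrophages (SE 0.25, adjusted p = 5.76e-05) and 1.22 in CCR2low macrophages (SE 0.24, adjusted p = 0.000577). B cells also make Fcgr2b. Their 8 markers summed to 529 to 775 CPM in Ly6Chigh monocytes, 245 to 1107 CPM in GFPneg glioma monocytes, 169 to 656 CPM in GFPneg CCR2high macrophages, where Pax5 was at 0, and 302 to 2048 CPM in GFPneg CCR2low macrophages. The 8 microglial markers summed to 185 to 285 CPM in Ly6Chigh monocytes and 1769 to 3066 CPM in GFPneg glioma monocytes. In GFPneg CCR2high and CCR2low macrophages they summed to 2530 to 4919 and 4001 to 9482 CPM. The part of B-cell or microglial RNA in the Fcgr2b difference was not tested. Between the blood populations the difference was -0.75 (SE 0.25), with an adjusted p of 0.0806. It was called in 6 of the 15 alternatives run, with mouse number as a replicate block (0.0423), by DESeq2 (0.0317), with a filter of 10 counts (0.0153), with the first library of the summed sample (0.0352), with the failed Ly6Clow library (-1.23, 0.011) and without Ly6Clow mouse 23 (-1.05, 0.0207). The 3 brain calls were lost with spike-in scaling (1.32 to 1.68, adjusted p from 0.316 to 0.507).

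Fcer1g, the signaling chain that the 3 activating receptors need, was called in none of the 10 comparisons between populations. It was the most abundant of the 6 per length of transcript, with means of 1967 to 3377 CPM per kilobase over the 8 populations. Its range was 1434 to 2306 CPM in Ly6Chigh monocytes, 2087 to 3533 CPM in Ly6Clow monocytes, 1342 to 3727 CPM in glioma monocytes and 1494 to 2342 CPM in macrophages. All neighbours in the order of means overlap. Against Ly6Chigh monocytes the log2 fold changes were 0.56 in Ly6Clow monocytes (SE 0.28, edgeR adjusted p = 0.24; -1.33 with spike-in scaling), 0.17 in GFPneg glioma monocytes (SE 0.28, adjusted p = 0.797), -0.08 in CCR2high macrophages (SE 0.26, adjusted p = 0.885; 0.073 with spike-in scaling) and -0.22 in CCR2low macrophages (SE 0.26, adjusted p = 0.628), none past the threshold.

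Fcgrt, the FcRn heavy chain, had an order of its own, with Ly6Clow monocytes at the top and GFPneg glioma monocytes at the bottom. Ly6Chigh monocytes had 131, 128 and 145 CPM and Ly6Clow monocytes 359, 360 and 228 CPM in mice 22, 23 and 24. GFPneg glioma monocytes had 103, 112 and 96.1 CPM in mice 22, 24 and 26, all under the Ly6Chigh range, and their GFPpos counterparts 188, 202 and 141 CPM. Macrophages ranged from 134 to 310 CPM, and mouse 26 was the highest replicate in each of the 4 macrophage populations. In Ly6Clow monocytes Fcgrt was 2.34-fold higher than in Ly6Chigh monocytes (log2 fold change 1.23, SE 0.28, edgeR adjusted p = 0.00834), and the sign turned with spike-in scaling (-0.84, where the median of all genes was -1.69). The call was also lost without Ly6Chigh mouse 23 (adjusted p = 0.0681), with the first library of the summed sample (1.15, adjusted p = 0.0691), with the failed Ly6Clow library in place of the one used (1.12, adjusted p = 0.0516) and with only the blood populations in the fit (1.25, adjusted p = 0.405). Against Ly6Chigh monocytes the difference was -0.38 in GFPneg glioma monocytes (SE 0.28, adjusted p = 0.46), 0.49 in CCR2high macrophages (SE 0.26, adjusted p = 0.216) and 0.47 in CCR2low macrophages (SE 0.26, adjusted p = 0.226). In the GFPpos macrophages it passed, at 0.80 in CCR2high (adjusted p = 0.0298) and 0.80 in CCR2low cells (adjusted p = 0.0282).

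The make-up of the 4 receptors was compared per kilobase of exon, within each replicate, so that it does not depend on the scaling between libraries. It does depend on the length used, the exons merged over all transcripts: 5790 bases for Fcgr2b, 2589 for Fcgr1, 1736 for Fcgr3 and 1256 for Fcgr4. No other length was run, and a shorter Fcgr2b would have a larger share. Without length, mean Fcgr3 lay below mean Fcgr2b in GFPneg glioma monocytes (1136 and 1338 CPM). It lay above it in GFPpos CCR2low macrophages (1261 and 1145 CPM). In Ly6Chigh monocytes Fcgr3 took 67.4% ± 6.87 (SD, n = 3) of the sum, Fcgr2b 13.9% ± 1.55, Fcgr1 10.2% ± 1.07 and Fcgr4 8.44% ± 5.51. In Ly6Clow monocytes Fcgr4 led with 57.0% ± 8.30 (SD, n = 3), Fcgr3 had 34.1% ± 7.30, Fcgr2b 6.48% ± 0.471 and Fcgr1 2.39% ± 0.763. Blood monocytes thus differed in which activating chain led, and the inhibitory share was 12.1 to 14.9% in Ly6Chigh and 6.06 to 6.99% in Ly6Clow replicates, without overlap. The failed Ly6Clow library of mouse 23, left out here, differed from the one used. Before TMM scaling it held 45.8 CPM of Fcgr4 and 1050 of Fcgr3, so Fcgr4 did not lead in it. In the 6 brain populations Fcgr3 led with means of 40.8 to 51.9%, Fcgr4 had 23% to 26.7%, Fcgr2b 13.6 to 15.6% and Fcgr1 10.1 to 19.3%. The inhibitory share of the brain populations overlaps that of Ly6Chigh monocytes. GFPneg glioma monocytes had the highest Fcgr1 share, at 19.3% ± 1.19 (SD, n = 3), with 13.1% ± 1.48 in the GFPpos ones and 10.1 to 11% in the macrophages.

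**Figure D2:**
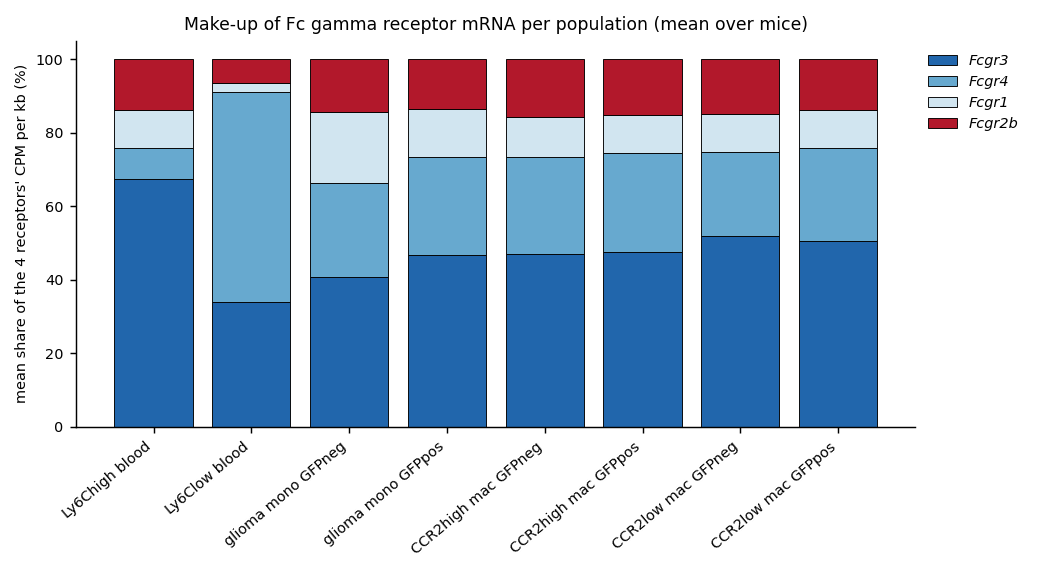
Mean share, in percent, of each of 4 receptor genes in their summed CPM per kilobase of exon merged over transcripts, by population (n = 3 mice for monocytes, n = 4 for macrophages). Error is not drawn, and the shares depend on the length used. Fcgr4 makes up 57.0% in Ly6Clow blood monocytes against 8.44% in Ly6Chigh ones, and the inhibitory Fcgr2b share is 6.48% against 13.9%.

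Activating chains were also set against Fcgr2b as a difference of log2 CPM within each replicate, without regard to length. Fcgr4 minus Fcgr2b was -2.19, -3.64 and -3.42 in Ly6Chigh monocytes and 1.24, 0.91 and 0.62 in Ly6Clow monocytes of mice 22, 23 and 24, and -1.92 to -1.02 in the brain. In the failed Ly6Clow library of mouse 23, left out here, Fcgr4 lay below Fcgr2b (45.8 and 178 CPM before TMM scaling). For Fcgr1 the difference was -1.65 to -1.56 in Ly6Chigh, -2.87 to -2.24 in Ly6Clow and -0.82 to -0.65 in GFPneg glioma monocytes, and -1.83 to -1.30 in macrophages. Fcgr3 minus Fcgr2b was 0.29 to 0.87 over both blood populations and -0.40 to 0.38 over the brain populations. The mean of the 3 chains minus Fcgr2b was -1.38 ± 0.20 (SD, n = 3) in Ly6Chigh monocytes and -0.35 ± 0.066 (n = 3) in Ly6Clow monocytes. It was -0.79 ± 0.057 and -0.81 ± 0.18 in GFPneg and GFPpos glioma monocytes (n = 3 each). In macrophages it lay between -1.09 ± 0.16 (GFPneg CCR2low) and -0.91 ± 0.16 (GFPpos CCR2low), n = 4 each. The means of all 6 brain populations lie between those of the 2 blood populations, and the mean combines chains that differed in opposite directions between the blood populations.

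**Figure D3:**
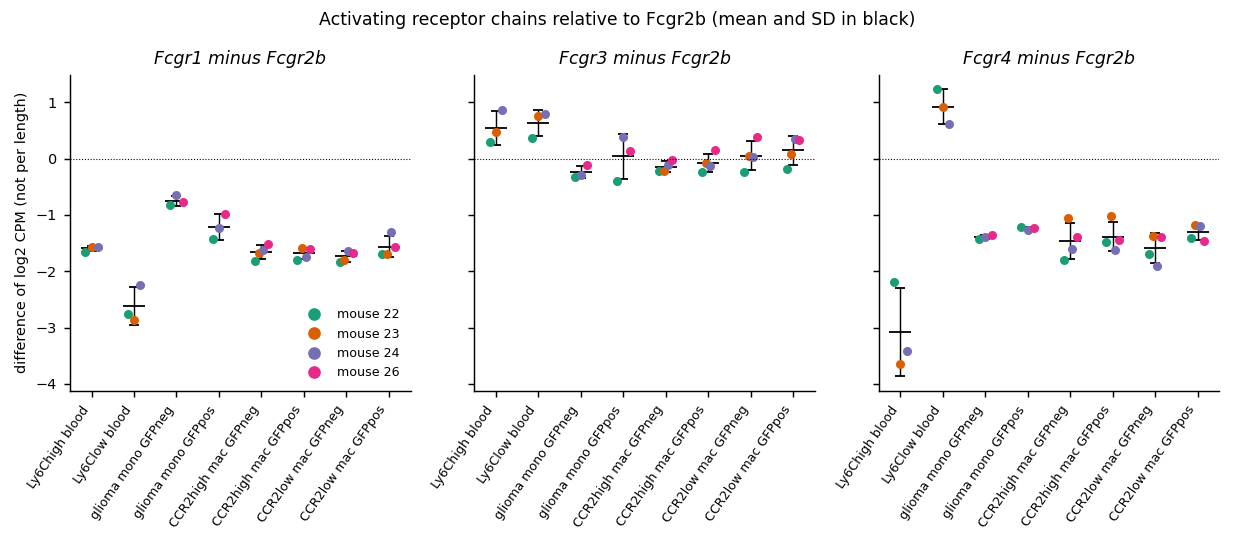
Difference of log2 CPM between each activating chain and Fcgr2b within a replicate (linear axis in log2 units, not per length), coloured by mouse, with mean and SD in black. Fcgr4 is above Fcgr2b in all 3 Ly6Clow replicates (0.62 to 1.24) and below it in every other replicate.

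Counted over the 6 genes, which were chosen with earlier results of these data known, the calls stood against these backgrounds. Between Ly6Clow and Ly6Chigh monocytes 3 of 6 were called, Fcgr4 and Fcgrt higher and Fcgr1 lower, where 3.65% of all tested genes were called higher and 1.96% lower. In GFPneg glioma monocytes against Ly6Chigh monocytes the 4 receptors Fcgr1, Fcgr2b, Fcgr3 and Fcgr4 were called higher and none lower (all genes: 11.1% higher, 2.68% lower). The same 4 were called higher in GFPneg CCR2high macrophages (12.7% higher, 5.14% lower) and in GFPneg CCR2low macrophages (14.1% higher, 6.09% lower). The median log2 fold change of the 6 genes was 1.18, 1.16 and 0.92 in these 3 comparisons, which share the Ly6Chigh replicates, beside 0.12, 0.15 and 0.17 over all tested genes. Between GFPneg CCR2high macrophages and glioma monocytes 0 of 6 were called (all genes: 0% higher, 0.182% lower), and between CCR2low macrophages and glioma monocytes 1 of 6, Fcgr1 (0.147% higher, 1.06% lower).

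**Figure D4:**
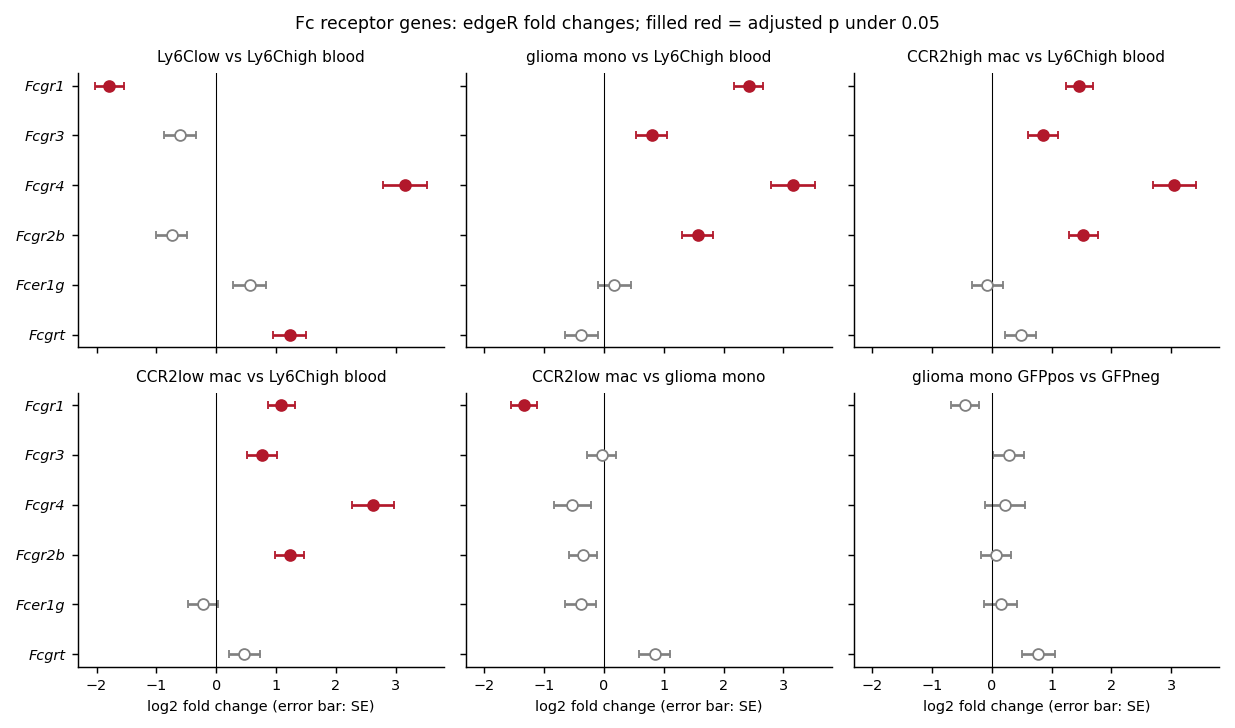
Log2 fold changes (x axis) of the 6 genes in 6 comparisons from the edgeR fit, with SE as error bars; brain populations are GFPneg unless named, and filled red points have an adjusted p under 0.05. Fcgr4 is the largest change in each comparison with Ly6Chigh blood monocytes (2.62 to 3.16), Fcer1g is called in none of the 6, and with spike-in scaling the sign of Fcgrt turns in Ly6Clow against Ly6Chigh monocytes and in GFPpos against GFPneg glioma monocytes and that of Fcer1g in Ly6Clow monocytes and CCR2high macrophages.

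No member was called between macrophages of different CCR2 level or between GFPpos and GFPneg cells. Between GFPneg CCR2low and CCR2high macrophages 0 of 6 were called (all genes: 0% higher and 0% lower, 276 at an unadjusted p under 0.05, and 8 called by DESeq2), with log2 fold changes from -0.43 (Fcgr4, SE 0.29) to -0.02 (Fcgrt, SE 0.24). Between GFPpos and GFPneg cells 0 of 6 were called in glioma monocytes, CCR2high macrophages and CCR2low macrophages, as in 0% of all genes each (739, 69 and 184 genes at an unadjusted p under 0.05, and 21, 1 and 3 called by DESeq2). Fcgrt came nearest in glioma monocytes, where it was higher in the GFPpos cells of 3 of 3 mice (log2 fold change 0.77, SE 0.28, edgeR adjusted p = 0.639, and -0.81 with spike-in scaling). In mouse 22 that direction rests on the sum of 2 libraries with 47.6 and 210 CPM before TMM scaling, beside 103 TMM-scaled CPM in its GFPneg cells, so the first library alone lies below the GFPneg value. With the first library in place of the sum the log2 fold change was 0.30 (adjusted p = 0.902). Over all cell types, on the TMM scale, Fcgrt was higher in GFPpos cells in 10 of 11 pairs from the same mouse, the pair with the summed libraries among them. Fcgr1 was lower in GFPpos glioma monocytes in 3 of 3 mice (-0.45, SE 0.23, adjusted p = 0.801), with almost no difference in mouse 22 (755 against 753 CPM).

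The genes around the receptors were read from 5 lists chosen for their roles, with earlier results of these data known. No gene of these lists was called between CCR2high macrophages and glioma monocytes (all genes: 0% higher, 0.182% lower). None was called between CCR2low and CCR2high macrophages or between GFPpos and GFPneg cells, as in 0% of all genes each. Other Fc receptors (9 tested) had 2 genes higher in Ly6Clow than in Ly6Chigh monocytes (all genes: 3.65%). They had 3 higher in each GFPneg brain population than in Ly6Chigh monocytes (all genes: 11.1 to 14.1%), with none lower (all genes: 1.96 to 6.09%). The leading one was Fcrls, an Fc receptor-like scavenger molecule that is also a microglial marker, with 0.653 ± 0.584 CPM (SD, n = 3) in Ly6Chigh monocytes, 83.1 in Ly6Clow monocytes, 184 in GFPneg glioma monocytes, 263 in GFPneg CCR2high and 506 in GFPneg CCR2low macrophages. Fcrla and Fcrlb, which B-lineage cells also make, were under 1 CPM on average in Ly6Chigh monocytes and had 5.55 to 31.3 CPM in the GFPneg brain populations. Their fold changes rest on a population near 0 and are not given.

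ITAM signaling genes (26 tested) had more lower than higher calls in macrophages. Against Ly6Chigh monocytes 2 were higher and 1 lower in GFPneg glioma monocytes (all genes: 11.1% higher, 2.68% lower). In CCR2high macrophages 3 were higher and 7 lower (12.7% and 5.14%), and in CCR2low macrophages 2 higher and 8 lower (14.1% and 6.09%). In Ly6Clow monocytes 2 were higher and 1 lower (3.65% and 1.96%). The list's median log2 fold change was -0.27, -0.35 and -0.48 in the 3 brain comparisons, beside 0.12, 0.15 and 0.17 over all tested genes. Syk, the kinase that docks on the ITAM, was lower in CCR2high macrophages (-1.91, SE 0.38, edgeR adjusted p = 0.000705), in CCR2low macrophages (-1.83, SE 0.38, adjusted p = 0.000981) and in Ly6Clow monocytes (-1.41, SE 0.42, adjusted p = 0.0449). Fgr, a Src-family kinase, fell by 2.76 on the log2 scale in CCR2low macrophages (SE 0.30, adjusted p = 2.17e-07), with 1167 ± 116 CPM (SD, n = 3) in Ly6Chigh monocytes and 173 ± 51.8 CPM (SD, n = 4) there, and it was lower in CCR2high macrophages (-1.91, adjusted p = 3.52e-05) and glioma monocytes (-1.03, adjusted p = 0.0289) too. Blnk, an adaptor for Syk substrates, was higher in all 4 populations than in Ly6Chigh monocytes (3.07 to 5.10, adjusted p 3.34e-07 to 0.00137). Plcg2, a phospholipase below Syk, was lower in CCR2low macrophages (-1.98, SE 0.43, adjusted p = 0.00153) and in CCR2high macrophages (-1.75, SE 0.43, adjusted p = 0.0047). Fgr was also lower in CCR2low macrophages than in GFPneg glioma monocytes (-1.72, SE 0.30, adjusted p = 0.00172), the only gene of the list called within the brain.

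Inhibitory effectors (16 tested) had calls in both directions against Ly6Chigh monocytes. In Ly6Clow monocytes 1 was higher and 2 lower (all genes: 3.65% and 1.96%), and in GFPneg glioma monocytes 3 and 2 (11.1% and 2.68%). Each GFPneg macrophage population had 2 higher and 3 lower (CCR2high 12.7% and 5.14%, CCR2low 14.1% and 6.09% of all genes). The list medians in these 4 populations were -0.22, -0.28, -0.34 and -0.37. Cd300lf, a receptor with inhibitory tail motifs, was 3.36 higher on the log2 scale in glioma monocytes (SE 0.41, edgeR adjusted p = 1.52e-06), and the related Cd300a was lower (-1.92, SE 0.33, adjusted p = 0.000177). Both were called in the same directions in CCR2high (2.53 and -1.86) and CCR2low macrophages (2.50 and -2.49). Dok2, an adaptor that dampens tyrosine kinase signals, was higher in Ly6Clow monocytes (1.69, SE 0.33, adjusted p = 0.00247, and -0.36 with spike-in scaling) and in glioma monocytes (2.09, SE 0.33, adjusted p = 6.19e-05), CCR2high (2.15) and CCR2low macrophages (2.14). Lilrb4 and Sirpa, inhibitory receptors of myeloid cells, were lower in Ly6Clow monocytes (-1.93 and -0.96, adjusted p = 0.000343 and 0.0483), and Pirb in CCR2low (-2.20, adjusted p = 0.000946) and CCR2high macrophages (-1.60, adjusted p = 0.0135). Lilrb4 was higher in glioma monocytes (0.87, adjusted p = 0.0489).

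The FcRn partner B2m was higher than in Ly6Chigh monocytes in each of 4 populations: by 0.88 in Ly6Clow monocytes (SE 0.27, edgeR adjusted p = 0.0487, and -0.98 with spike-in scaling), 1.23 in GFPneg glioma monocytes (SE 0.27, adjusted p = 0.00215), 0.98 in CCR2high macrophages (SE 0.25, adjusted p = 0.00723) and 0.99 in CCR2low macrophages (SE 0.25, adjusted p = 0.00596). B2m is also the light chain of class I MHC, and of these 4 comparisons Fcgrt was called in the first. Of the 8 tested genes for the FcRn partner and endosomal sorting, 1 was higher and 2 lower in Ly6Clow monocytes (all genes: 3.65% and 1.96%). It was 3 and 0 in glioma monocytes (11.1% and 2.68%), 3 and 1 in CCR2high (12.7% and 5.14%) and 3 and 0 in CCR2low macrophages (14.1% and 6.09%). The list medians were 0.33, 0.14, 0.28 and 0.48. Ehd1, which returns cargo from recycling endosomes, was higher in glioma monocytes (1.77, SE 0.35, adjusted p = 0.000799), CCR2high (1.12, adjusted p = 0.0165) and CCR2low macrophages (1.08, adjusted p = 0.0195).

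Known regulators of these genes (12 tested) had 1 gene higher and 1 lower in Ly6Clow monocytes (all genes: 3.65% and 1.96%), 1 and 1 in GFPneg glioma monocytes (11.1% and 2.68%), 0 and 1 in CCR2high macrophages (12.7% and 5.14%) and 0 and 2 in CCR2low macrophages (14.1% and 6.09%), with list medians of 0.01, 0.16, -0.24 and -0.11. The interferon gamma receptor chain Ifngr1 was lower in glioma monocytes than in Ly6Chigh monocytes (-1.42, SE 0.22, edgeR adjusted p = 4.8e-05), and so it was in CCR2high (-1.36) and CCR2low macrophages (-1.61). In Ly6Clow monocytes Cebpb was higher (2.60, SE 0.67, adjusted p = 0.0213) and Irf8 lower (-1.69, SE 0.42, adjusted p = 0.0177). Spi1, which encodes PU.1, was named after its values were seen and was called in none of these 4 comparisons (adjusted p from 0.214 to 0.86). With spike-in scaling the named genes of the 5 lists kept their signs except Dok2 and B2m in Ly6Clow monocytes. The calls of Blnk, Fcrls and Fcrlb in all 3 GFPneg brain populations, of Cd300lf in glioma monocytes and CCR2high macrophages and of Fgr in CCR2low against Ly6Chigh monocytes were kept under it, and the other calls of genes named here were lost.

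**Figure D5:**
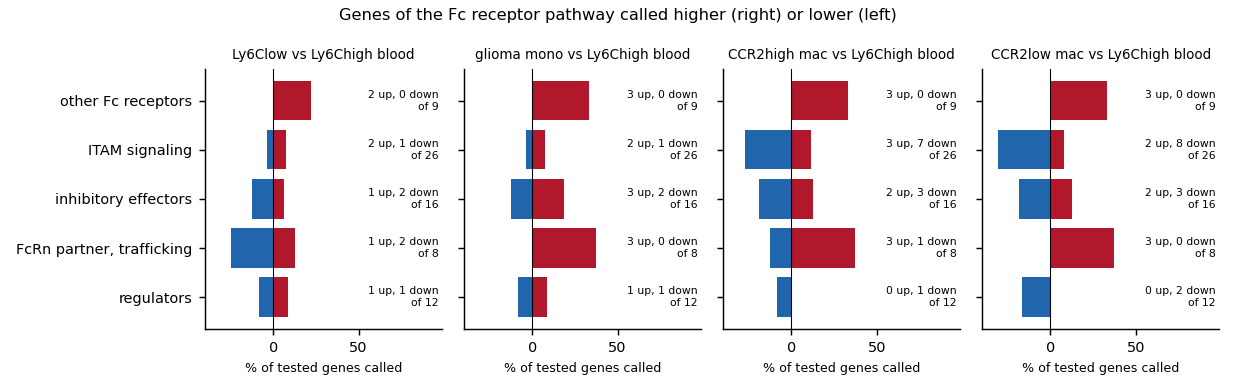
Share of tested genes in 5 lists (rows) called higher (red, right) or lower (blue, left) at an edgeR adjusted p under 0.05, in 4 comparisons with Ly6Chigh blood monocytes; brain populations are GFPneg, and the counts are printed in each row. ITAM signaling has 8 of 26 genes lower in CCR2low macrophages (all genes: 6.09%) and other Fc receptors have 3 of 9 higher in each brain population (all genes: 11.1 to 14.1%).

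Over the 28 replicates, which share their tissues and mice, the genes whose log2 CPM was most like each member were sought among the 8128 genes that averaged 10 CPM or more. For Fcgr1 they were Tarm1 (Pearson r = 0.957), Il1rn (0.956) and Cxcl10 (0.948), for Fcgr2b Renbp (0.958), Cfb (0.958) and Atp6v0c (0.954), and for Fcgr3 Grn (0.951) and Tcn2 (0.925). Fcgr4 was nearest to Cd9 (0.890), Bcl2a1b (0.888) and Bcl2a1d (0.886), and Fcer1g to Vamp8 (0.914), Cd52 (0.907) and Cyba (0.907). Fcgrt had the loosest likeness, with Slc29a1 (0.740), Lilra5 (0.678) and Mospd2 (0.676). Among the members themselves, Fcgr1, Fcgr2b and Fcgr3 were alike (0.893 to 0.946), Fcgr4 less so (0.333 to 0.482 with those 3), and Fcer1g had negative values with those 3 (-0.304 to -0.172). These values describe the 28 replicates, which fall into blood and brain, and carry no test.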

How the data were processed

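The authors deposited whole-number read counts per gene for 30 libraries, without normalization. RNA of sorted cells was amplified from poly-A tails, and the authors used STAR on mm10, Picard 1.8.4 to drop duplicate reads, and HTSeq (intersection-strict) with a GRCm38.p3 annotation to count. The strand setting is not given in the sources used here. Duplicates were removed without molecular identifiers, so a count is not a molecule and any limit from counts covers counting error only. By the study's rule a library needed 6000 genes with at least 5 reads, which 1 of 30 did not reach. A pair of libraries of 1 sample was summed here, a choice made for this re-analysis, which gave 28 replicates from 4 mice. Reads on no gene (6.28% to 17.4%) and on overlapping genes (1.58% to 1.9%) and 92 spike-in RNAs stayed out of library sizes.

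Counts were tested with edgeR 4.0.16 in R 4.3.3 (filterByExpr, TMM, quasi-likelihood test, Benjamini-Hochberg adjustment over 11566 genes, threshold 0.05), in 1 fit over all 8 populations. The test was checked on simulated counts. Log2 CPM used a prior count of 2. Replicates within a population are different mice by number. The p-values rest on a spread within populations that is estimated over all 8 together, not over the compared populations alone. In it, samples of the same mouse count as independent. The same mouse gave several populations: deviations from the group means had a median correlation of 0.136 within mice (86 pairs) and -0.03 between mice (256 pairs). Within mice it was -0.083 to 0.066 between GFPneg brain populations and Ly6Chigh monocytes, and 0.087 to 0.255 between the blood populations. In the comparisons within the brain, those of GFPpos with GFPneg cells included, it was 0.076 to 0.674. The fit without a block does not use this pairing. The main fit has no block (the study's methods name DESeq2 without a design formula), and mouse number as a replicate block is an alternative. Other alternatives were DESeq2 1.42.0, its size factors, spike-in scaling, other filters, only the compared populations, the GFPpos populations, the first library of the summed sample, a prior count of 0.5 and each replicate left out.

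Positions, exon lengths and transcripts came from GENCODE vM21 and promoters from RefSeq (all 6 members matched in both). The 3 motifs were chosen after the sequences and other motifs had been seen. The members and all gene lists were chosen with earlier results of these data known. From each list at most 3 called genes per comparison were named, those with the largest change and a mean of at least 10 CPM (their calls in the other comparisons are given too), and some genes the rules select are not reported here. Files hold no comparison columns of the authors.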

Additional observations from a re-analysis of the deposited data

How the results depend on the processing

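With spike-in scaling, in the order Ly6Clow, GFPneg glioma monocytes, CCR2high and CCR2low macrophages against Ly6Chigh monocytes, then CCR2high and CCR2low macrophages against glioma monocytes, 36, 398, 523, 591, 0 and 1 genes were called in place of 649, 1596, 2060, 2340, 21 and 140, and 0, 1, 1, 0, 0 and 0 members in place of 3, 4, 4, 4, 0 and 1. Under it Fcer1g (-1.33) and Fcgrt (-0.84) turned in Ly6Clow monocytes, Fcer1g in CCR2high macrophages (0.073) and Fcgrt in GFPpos against GFPneg glioma monocytes (-0.81), where the median of all genes was -1.69, 0.15 and -1.37. Fcgrt in glioma monocytes against Ly6Chigh monocytes turned with GFPpos cells (0.39) and Fcer1g there without Ly6Chigh mouse 24 (-0.024, in a range of -0.024 to 0.26 over the replicates left out). The cause was not tested.

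Mouse number pairs the samples, and with it as a replicate block 96 genes and 1 member (Fcgr1) were called in the fifth comparison, 284 genes in the sixth and 3 between CCR2low and CCR2high macrophages, Fcer1g turned in CCR2high macrophages (0.031), Fcgr2b became called in blood, and no other call of a member changed. A filter of 1 count called 397 genes in blood. A filter of 10 counts in every replicate, which tests fewer genes, called 631, 986, 1034 and 48 genes in the second to the fifth comparison, with 1 member in the fifth and 2 in the sixth (Fcgr1 and Fcgrt). With the first library of the summed sample 400 genes were called in blood and 1 member in the fifth. In fits restricted to the compared populations, which leave fewer samples for the spread, 0 genes and 0 members were called in blood by edgeR, 101 genes and 1 member in the fifth and 293 genes in the sixth. DESeq2 called 1388 genes in blood, 102 and 1 member in the fifth, 274 and 2 members in the sixth, 8 between macrophages of different CCR2 level, and 21, 1 and 3 between GFPpos and GFPneg glioma monocytes, CCR2high and CCR2low macrophages. GFPpos in place of GFPneg populations gave 2673, 2 and 19 genes in the second, the fifth and the sixth, with 0 members in the sixth. The failed Ly6Clow library in place of the one used, an alternative chosen after seeing the data, gave 324 genes in blood.

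Leaving out 1 replicate gave 224 to 2444 genes and 2 to 5 members in blood (224 without Ly6Chigh mouse 23, 277 without Ly6Chigh mouse 24, 2444 without Ly6Clow mouse 24, 5 members without Ly6Clow mouse 23), 1018 to 1319 in the second (1018 without Ly6Chigh mouse 24 and 1035 without mouse 23), 1307 to 1821 in the third and 1541 to 2133 in the fourth (both lowest without Ly6Chigh mouse 24), 6 to 21 in the fifth, 47 to 110 in the sixth (47 without GFPneg glioma monocytes of mouse 24), and 0 to 1 between GFPpos and GFPneg glioma monocytes. In the fifth comparison 6, 7, 9 and 10 genes were called without CCR2high mouse 22, 23, 24 or 26 and 9 and 10 without glioma monocytes of mouse 22 or 24. In the sixth it was 82, 74 and 65 without CCR2low mouse 22, 23 or 24 and 67 without glioma monocytes of mouse 22. The mean of activating chains minus Fcgr2b moved by less than the spread between mice in every setting run for it. A mean cannot move by more than that spread when 1 replicate is left out. Scaling between libraries nearly cancels within a replicate, so neither kind of setting tests this mean. Its value with the failed Ly6Clow library of mouse 23 is not given. Before TMM scaling that library held 389, 1050 and 45.8 CPM of Fcgr1, Fcgr3 and Fcgr4 beside 178 of Fcgr2b. The library used held 47.2, 590 and 657 CPM beside 349. No member had fewer than 65 counts in a replicate, and groups hold 3 or 4 mice, which limits the precision of every value.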
